A study of Mus musculus with 9 samples.

Results

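Jarid2 and 9 other genes of Polycomb repressive complex 2 (PRC2) were followed in cultured ventricle cells of mouse embryos, labelled as cardiomyocytes, after siRNA against Dnmt3a or Dnmt3b. The 10 genes, out of 43629 in the count tables, were taken by symbol through their Ensembl identifiers in the GENCODE annotation of GRCm38. They are Jarid2, Ezh1, Ezh2, Eed, Suz12, Rbbp7, Mtf2, Phf1, Phf19 and Aebp2, and all 10 were among the 16561 genes with enough counts to be tested. The set was chosen by the measured values of Jarid2, whose transcript was higher with one siRNA and lower with the other. Those values are therefore given as a description, and nothing is read from the calls of Jarid2 in the fit over all genes.

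Each group had 3 RNA-seq libraries, numbered 1 to 3, and came from CD-1 mice, an outbred strain, with no engineered allele named. The DNMT3a siRNA group received a pool of 4 siRNAs against Dnmt3a, the DNMT3b siRNA group a pool of 4 against Dnmt3b, and the control group a commercial negative siRNA, each at 0.012 pmol by lipofection. All 3 groups were ventricle cells of embryonic day 13.5, pooled within a litter, plated after removal of fast-attaching cells, transfected after 48 h in culture and collected 72 h later by a magnetic sort for the surface protein VCAM1. Whether the 3 libraries of a group stand for different litters or cultures is not stated in the labels, so p-values cover the spread between these libraries alone, and that spread may be technical.

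PRC2 is the enzyme complex that methylates lysine residues in the tail of histone H3 (the H3K27me3 mark), and genes that carry the mark are commonly silent. Its catalytic subunit is either EZH2, typical of dividing and embryonic cells, or EZH1, which persists in resting cells. EED, SUZ12 and a histone-binding protein, RBBP7 or RBBP4, complete the core. The core joins one of several accessory proteins: JARID2 and AEBP2 mark one form of the complex, and the Polycomb-like proteins MTF2, PHF1 and PHF19 mark another. JARID2 belongs by sequence to the Jumonji family of histone demethylases but lacks the residues for that activity, and it helps to bring PRC2 to its sites. Mouse embryos without Jarid2 have defects of the heart, and loss of Ezh2 in the embryonic mouse heart disturbs its gene expression. DNMT3A and DNMT3B place methyl groups on cytosines of CpG dinucleotides in DNA that did not carry them. The comparisons ask how transcripts differ when either enzyme's transcript is lowered. Neither DNA methylation nor protein was analysed here.

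Jarid2 (ENSMUSG00000038518) lies on chr13:44729474-44921643 (GRCm38), plus strand. Because the lowered genes encode enzymes that act on CpG, the start regions of Jarid2 are shown, with each CpG in capitals. RefSeq (GRCm38.p6) gives windows at 2 starts, each of 300 bases, from 250 before the start to 50 after it. The windows are chr13:44730524-44730823 and chr13:44731021-44731320 on the plus strand.
Jarid2, upstream start: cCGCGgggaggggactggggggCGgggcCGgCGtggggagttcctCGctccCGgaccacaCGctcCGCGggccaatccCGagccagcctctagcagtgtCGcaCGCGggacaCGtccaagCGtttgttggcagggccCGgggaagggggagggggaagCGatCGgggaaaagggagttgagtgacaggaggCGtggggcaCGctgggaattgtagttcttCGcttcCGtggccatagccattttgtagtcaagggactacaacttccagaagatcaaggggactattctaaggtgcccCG
Jarid2, downstream start: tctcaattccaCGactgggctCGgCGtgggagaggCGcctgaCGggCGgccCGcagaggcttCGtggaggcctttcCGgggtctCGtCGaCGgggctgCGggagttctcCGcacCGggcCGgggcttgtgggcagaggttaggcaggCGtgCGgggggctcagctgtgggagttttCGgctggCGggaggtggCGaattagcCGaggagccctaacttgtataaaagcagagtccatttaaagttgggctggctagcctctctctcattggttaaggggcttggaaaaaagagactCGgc
The upstream window holds 24 CpG and the downstream window 23. Across all 32851 windows of that table the median is 7, with quartiles of 3 and 20. Windows with at least 24 CpG make up 19.98% of the table, and those with at least 23 make up 21.5%. All 10 genes matched the table, with 14 windows, and most of them are rich in CpG too: the windows of Suz12, Rbbp7, Phf19, Ezh2, Phf1, Ezh1 and Eed hold 41, 38, 38, 31, 24, 23 and 17. Mtf2 has a window with 30 and another with 2, and Aebp2 has 3 windows with 4, 21 and 4. The letters TTCCCGC or TTGGCGC, words like those bound by E2F factors, were searched on both strands and occur in the windows of Ezh2, Suz12 and Phf19, against 6.81% of all windows. A match is a description of the letters and no evidence of binding.

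Between 27852412 and 35896018 reads were counted in genes per library. The siRNAs were checked on their own targets first. Dnmt3a stood at 40.3, 52.9 and 46.3 CPM (reads scaled to one library size by the TMM method) in DNMT3a libraries, against 232, 270 and 275 CPM in control libraries, a log2 fold change of -2.48 ± 0.11 (SE; edgeR quasi-likelihood test, Benjamini-Hochberg adjusted p = 3.42e-06). Dnmt3b, a low transcript, stood at 1.17, 2.43 and 1.51 CPM in DNMT3b libraries, against 4.32, 4.26 and 4.33 CPM in control libraries (log2 fold change -1.34 ± 0.23, adjusted p = 0.00816). Each target was therefore lower in the libraries labelled for it. Alignments that were not unique made up 36.6% to 40.1% of the table totals in DNMT3a libraries, 41.5% to 42.5% in DNMT3b libraries and 41.3% to 42.5% in control libraries. On the first principal component, with 31.6% of the variance, DNMT3a 2 at 11.6 and control 2 at 10.7 lay apart from the other libraries of their groups, which ran from -28.5 to -17.5 and from -35.3 to -30.9.

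All 8 cardiomyocyte markers (Tnnt2, Myh6, Actc1, Tnni3, Ttn, Myl7, Ryr2 and Actn2) were detected in every library, and so were all 8 fibroblast markers, among them Col1a1 and Dcn, so the material labelled as cardiomyocytes held transcripts of both lists. The cardiomyocyte markers summed to 4911 to 6386 CPM in DNMT3a libraries, 6011 to 7256 CPM in DNMT3b libraries and 2223 to 2744 CPM in control libraries, and 7 of 8 rose in each knockdown. Beside this and the other marker counts, edgeR called 4.87% of all genes higher and 5.22% lower with DNMT3a siRNA. With DNMT3b siRNA it called 3.52% higher and 2.12% lower. The fibroblast markers summed to 38333 to 42174, 36202 to 43000 and 37415 to 57026 CPM in DNMT3a, DNMT3b and control libraries, with 3 of 8 lower with DNMT3a siRNA and 2 of 8 with DNMT3b siRNA. Endothelial markers summed to 69.4 to 117 CPM in DNMT3a, 141 to 150 CPM in DNMT3b and 82.9 to 116 CPM in control libraries, with 0 and 1 of 8 called by edgeR (1 and 3 at an unadjusted p under 0.05, 0 and 1 by DESeq2). Epicardial markers summed to 1187 to 1676 CPM in DNMT3a, 1261 to 1815 CPM in DNMT3b and 1902 to 2307 CPM in control libraries, and 3 and 1 of 7 fell. Macrophage markers summed to 6.62 to 13.3 CPM in DNMT3a, 13.3 to 27.6 CPM in DNMT3b and 16.7 to 44.98 CPM in control libraries, where 2 and 0 of 8 fell (7 and 0 at an unadjusted p under 0.05, 4 and 0 by DESeq2, 2 and 0 by limma-voom) and 1 marker was at 0 in DNMT3a 1. Smooth muscle and pericyte markers summed to 8002 to 9161 CPM in DNMT3a, 8177 to 9743 CPM in DNMT3b and 5677 to 8363 CPM in control libraries, with 0 of 8 called by edgeR in either comparison (2 and 4 at an unadjusted p under 0.05, 1 and 1 by DESeq2, 0 by limma-voom). With the library number as a block, 7 macrophage, 2 smooth muscle and 2 epicardial markers were called with DNMT3a siRNA. With DNMT3b siRNA the block called 3 endothelial, 2 macrophage and 2 smooth muscle markers. In bulk RNA of this kind, a change in the number of cells of a type and a change in the RNA per cell cannot be told apart.

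Jarid2 stood at 53.6, 52.2 and 62.1 CPM in DNMT3a 1, 2 and 3. In DNMT3b 1, 2 and 3 it stood at 24.99, 25.5 and 25.2 CPM. In control 1, 2 and 3 it stood at 30.9, 39.5 and 34.4 CPM. The groups did not overlap: every DNMT3a library was above every control library, and every DNMT3b library was below every control library. Behind these values were 1650 to 1897 reads in DNMT3a libraries, 718 to 813 in DNMT3b libraries and 930 to 1214 in control libraries. As means the groups stood at 55.9 ± 5.35, 25.2 ± 0.242 and 34.9 ± 4.30 CPM (SD, n = 3 each). The DNMT3b libraries were thus the tightest group, with a coefficient of variation of 0.961%, against 9.56% in DNMT3a and 12.3% in control libraries. A coefficient from 3 libraries is itself uncertain. Counts of 718 to 813 reads also vary through sampling alone, so 0.961% is no measure of precision.

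**Figure D1:**
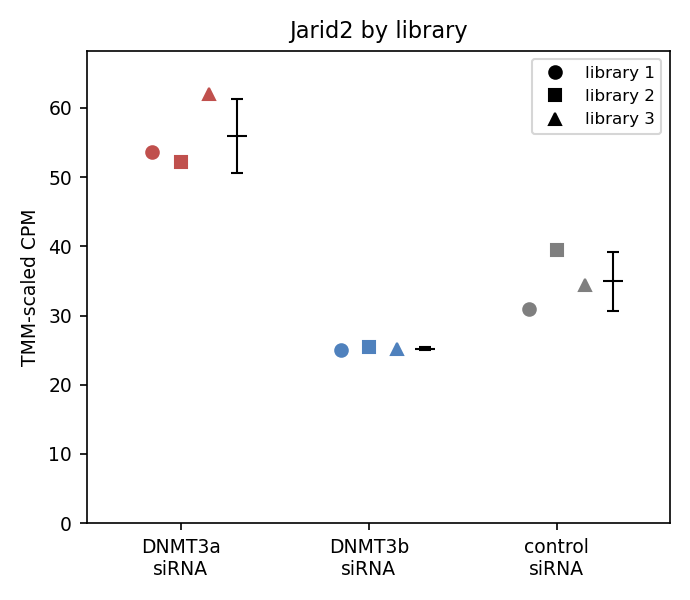
Jarid2 in TMM-scaled CPM (vertical axis) for each library of the 3 siRNA groups, with symbols for the library number and the mean ± SD of 3 libraries beside each group. The 3 DNMT3a libraries sit between 52.2 and 62.1 CPM, above all control libraries, and the 3 DNMT3b libraries lie at about 25 CPM, below all of them.

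The difference of Jarid2 between DNMT3a and control libraries was 1.60-fold, a log2 fold change of 0.68 ± 0.10 (SE). DNMT3b libraries held 72.2% of the control level (log2 fold change -0.47 ± 0.11). DNMT3a over DNMT3b libraries gave 2.22-fold (log2 fold change 1.15 ± 0.11). Set among all 16561 genes, 6.57% stood at least as high with DNMT3a siRNA, 7.39% were at least as low with DNMT3b siRNA, and 1.13% stood at least as high in DNMT3a over DNMT3b libraries. Between libraries of the same number, Jarid2 differed by 0.79, 0.40 and 0.85 on the log2 scale for DNMT3a minus control, and by -0.31, -0.63 and -0.45 for DNMT3b minus control. The number 2 pair gave the smallest DNMT3a difference and the largest DNMT3b difference, and control 2 was the highest control library. Without the 3 libraries numbered 2 the log2 fold change with DNMT3a siRNA was 0.81. The cardiomyocyte marker sum was higher than control in both knockdowns, while Jarid2 was above control in one and below it in the other. The share of non-unique alignments was lower in DNMT3a libraries alone. The part of either in the values of Jarid2 was not tested.

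Of the 10 genes, 1 was called higher with DNMT3a siRNA and 0 lower, against 4.87% and 5.22% of all genes. With DNMT3b siRNA 0 were called higher and 1 lower, against 3.52% and 2.12% of all genes, and between DNMT3a and DNMT3b libraries 1 was higher and 0 lower, against 4.47% and 5.08%. The gene is Jarid2 each time, and these are the contrasts that chose it, so nothing is read from the count. In either direction, 10.1%, 5.64% and 9.55% of all genes were called in DNMT3a against control, DNMT3b against control and DNMT3a against DNMT3b. Of the calls with DNMT3a siRNA, 48.3% were higher, or 61.1% where libraries were scaled by library size alone. The call of Jarid2 with DNMT3b siRNA was lost, leaving 0 of 10, when control 3, DNMT3b 1, DNMT3b 2 or DNMT3b 3 was left out in turn, and when all 3 libraries numbered 2 were left out. The log2 fold change was -0.48 to -0.47 in those 4 single omissions and -0.39 without the libraries numbered 2.

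Both knockdowns were set against the same control libraries, and opposite calls are what chose Jarid2, so the count of such genes is given as a description. Of 429 genes called in both knockdowns, 2.59% of those tested, 8 were higher with DNMT3a siRNA and lower with DNMT3b siRNA (0.0483% of all genes), and 7 had the reverse pattern (0.0423%). Among the 8 were Jarid2, Frmd4b, Tmem65, Qsox2, Rab11fip5, AU040320 and ENSMUSG00000098148. Rab11fip5 encodes a partner of the recycling GTPase RAB11. Beside Jarid2, the log2 fold changes of the other 7 with DNMT3a siRNA ran from 0.38 (ENSMUSG00000098148 and Tmem65) to 0.54 (Frmd4b). With DNMT3b siRNA Frmd4b stood at -0.56 and Tmem65 at -0.55. The 7 with the reverse pattern were Arc, Rcan2, Errfi1, Psen2, Prkaca, 1810037I17Rik and Tmem39a, of which Prkaca encodes the catalytic subunit of protein kinase A. No other PRC2 gene was among the 15, which were named after their values were seen.

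The other 9 genes were included by name, with the results of these data already known. None of the 9 was called in any of the 3 comparisons by edgeR, DESeq2 or limma-voom, or with the library number as a block. At an unadjusted p under 0.05, edgeR gave 2 with DNMT3a siRNA (Ezh2 and Rbbp7), 1 with DNMT3b siRNA (Mtf2) and 0 between the knockdowns. The share of all genes under that p was not counted, so nothing is read from such counts, here or in the lists. The median log2 fold changes of the 9 were 0.01 with DNMT3a siRNA, 0.02 with DNMT3b siRNA and -0.02 between the knockdowns, beside 0.02, 0.00 and 0.01 over all genes. With DNMT3a siRNA 0 of the 9 had 3 libraries all above or all below the controls, against 14.1% of all genes higher and 12.6% lower. With DNMT3b siRNA 1 was wholly higher (Mtf2) and 2 wholly lower (Ezh1 and Suz12), against 13.8% and 12.3% of all genes. Between DNMT3a and DNMT3b libraries 1 was wholly higher (Suz12) and 1 wholly lower (Mtf2), against 16.2% and 16.1% of all genes.

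The catalytic genes come first. Ezh2 stood at 46.7, 48.8 and 39.9 CPM in DNMT3a libraries, at 41.6, 41.7 and 45.1 CPM in DNMT3b libraries, and at 42.4, 34.5 and 29.9 CPM in control libraries. Control 1 lay inside the range of both knockdown groups and the other 2 control libraries lay below it. The log2 fold change was 0.34 ± 0.13 with DNMT3a siRNA (edgeR quasi-likelihood test, adjusted p = 0.119) and 0.26 ± 0.13 with DNMT3b siRNA (edgeR, adjusted p = 0.257). The 95% intervals in fold were 1.04 to 1.54 and 0.990 to 1.46. Leaving out control 1 turned the DNMT3a value into a call (log2 fold change 0.49, edgeR adjusted p = 0.0309), and over all alternatives the adjusted p ran from 0.0309 to 0.436. Between same-numbered libraries the DNMT3a minus control difference of Ezh2 was 0.14, 0.50 and 0.42.

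Ezh1 stood at 19.7, 19.9 and 24.1 CPM in DNMT3a libraries, at 19.9, 21.4 and 20.6 CPM in DNMT3b libraries, and at 21.9, 22.5 and 28.9 CPM in control libraries. Control 3 was the highest of the 9, and all DNMT3b libraries were below all control libraries. The log2 fold changes of -0.20 ± 0.13 and -0.24 ± 0.13 did not pass the test (edgeR, adjusted p = 0.366 and 0.297 with DNMT3a and DNMT3b siRNA). Per kilobase of exon, the ratio of Ezh2 to Ezh1 was 2.64, 2.73 and 1.84 in DNMT3a libraries, 2.33, 2.17 and 2.44 in DNMT3b libraries, and 2.16, 1.71 and 1.15 in control libraries. The control ratios had the widest range of the 3 groups and DNMT3a 3 lay inside it, while within each library number the DNMT3a ratio was above the control ratio. An exact two-sided permutation test of the ratio, which ignores the numbers, gave p = 0.2 for DNMT3a against control, 0.1 for DNMT3b against control and 0.9 for DNMT3a against DNMT3b. Adjusted over these 3 comparisons, the exact p-values were 0.3, 0.3 and 0.9. The smallest p that 3 against 3 libraries allow is 0.1, so this test cannot pass 0.05.

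The core genes Suz12, Eed and Rbbp7 had coefficients of variation of at most 8.99% within a group. SUZ12 is the scaffold on which the complex is built, EED binds the H3K27me3 mark itself, and RBBP7 binds histones. Suz12 stood at 72.3, 75.5 and 68.3 CPM in DNMT3a libraries, at 64.3, 66.4 and 65.3 CPM in DNMT3b libraries and at 70.1, 72.4 and 72.1 CPM in control libraries. The DNMT3b libraries were the lowest 3 of the 9. The log2 fold changes were 0.01 ± 0.07 with DNMT3a siRNA and -0.13 ± 0.07 with DNMT3b siRNA (edgeR, adjusted p = 0.951 and 0.308), with 95% intervals of 0.906 to 1.120 and 0.822 to 1.02 in fold. Eed ran from 31.3 to 37.2 CPM in DNMT3a libraries, from 32.4 to 36.8 CPM in DNMT3b libraries and from 30.7 to 33.7 CPM in control libraries, and the groups overlapped. Its 95% intervals reached at most 1.23-fold with DNMT3a siRNA and 1.24-fold with DNMT3b siRNA.

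Rbbp7 stood at 120, 135 and 121 CPM in DNMT3a libraries, at 151, 143 and 132 CPM in DNMT3b libraries, and at 152, 147 and 133 CPM in control libraries. DNMT3a 1 and DNMT3a 3 were the lowest of the 9, and DNMT3a 2 overlapped the controls. The log2 fold change of -0.20 ± 0.08 with DNMT3a siRNA did not pass the test (edgeR, adjusted p = 0.172), and that with DNMT3b siRNA was -0.02 ± 0.08 (edgeR, adjusted p = 0.927). Exons of Rbbp7 overlap the opposite-strand gene Txlng in the annotation. The same holds for Suz12 with Gm26563, Ezh2 with Gm26625, Eed with E230029C05Rik, Mtf2 with Tmed5 and Phf1 with Cuta. The strand setting of the counting is not given in the sources used here, so the values of these 6 genes are less certain than that of Jarid2, which has only a snoRNA gene, Gm22213, on its other strand, with 3 reads in all.

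**Figure D2:**
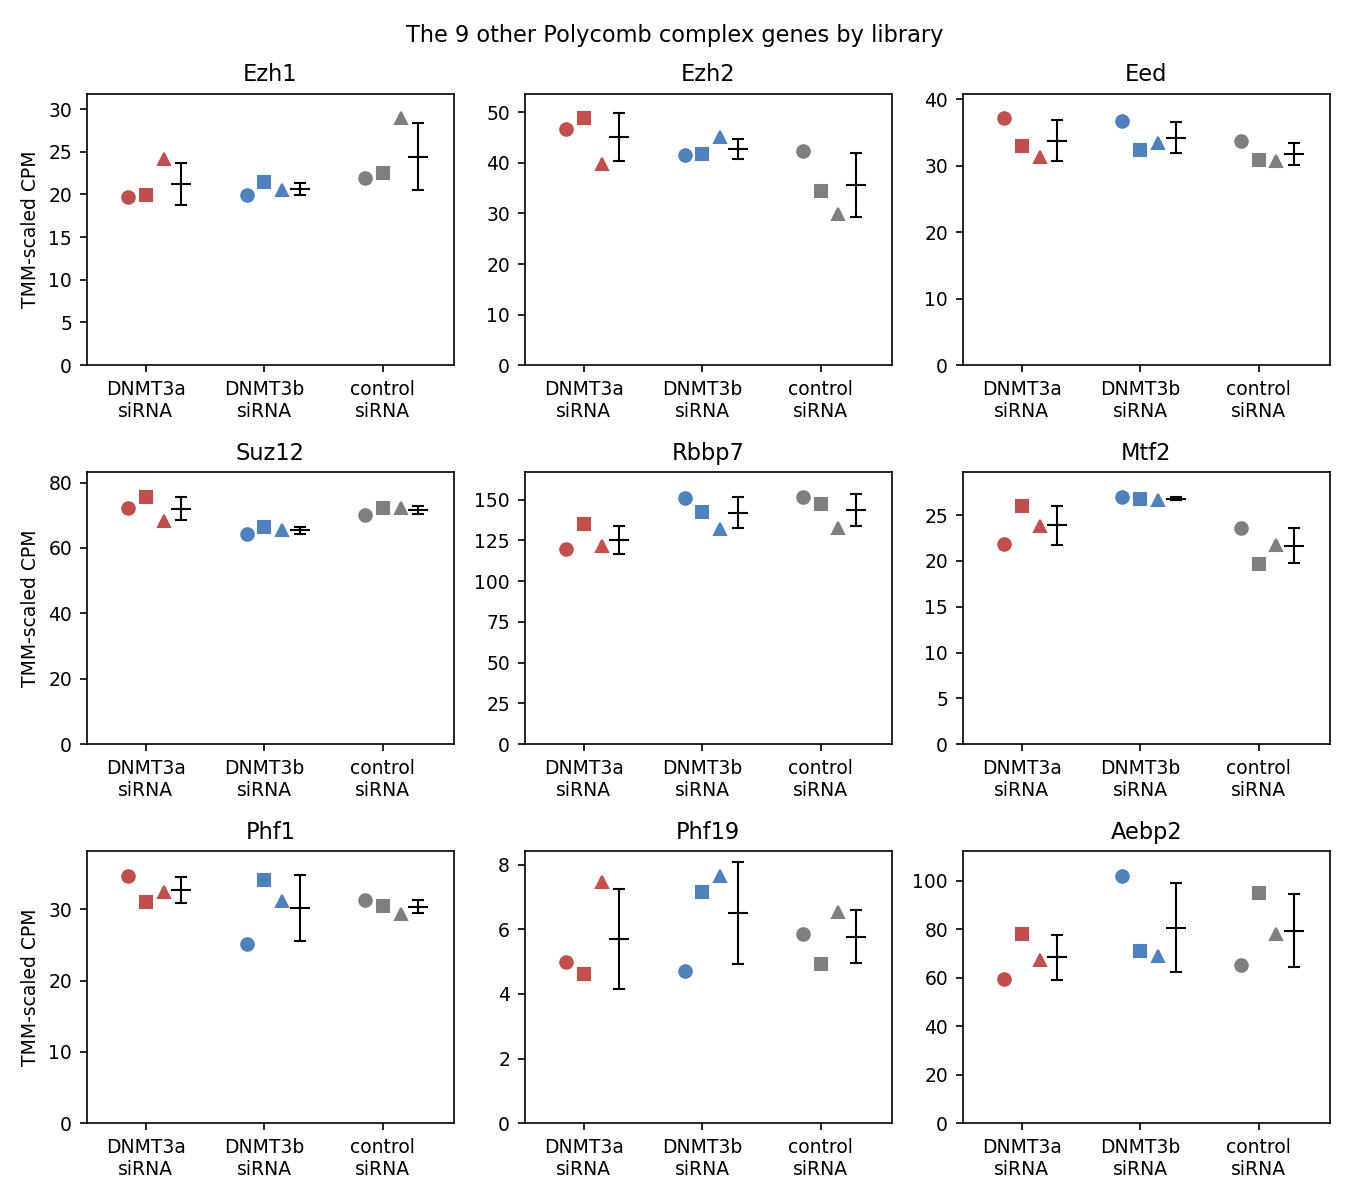
The 9 other PRC2 genes in TMM-scaled CPM (vertical axes, each from 0) by library, with circles, squares and triangles for libraries 1, 2 and 3 and the mean ± SD of 3 libraries beside each group. Groups overlap in most panels; Mtf2 in DNMT3b libraries, at 26.6 to 26.96 CPM, lies above all control libraries.

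The Polycomb-like proteins carry Tudor and PHD domains and bind unmethylated CpG-rich DNA. Mtf2 stood at 21.8, 26.0 and 23.8 CPM in DNMT3a libraries, at 26.96, 26.8 and 26.6 CPM in DNMT3b libraries, and at 23.6, 19.7 and 21.8 CPM in control libraries. The DNMT3b libraries were the highest 3 of the 9 and lay close together. The log2 fold change with DNMT3b siRNA, 0.30 ± 0.10, did not pass the test over all genes (edgeR, adjusted p = 0.0995), and over the alternatives the adjusted p ran from 0.0866 to 0.286. Its 95% interval was 1.06 to 1.44 in fold. With DNMT3a siRNA the log2 fold change was 0.14 ± 0.10 (edgeR, adjusted p = 0.435). Phf1 stood at 31.1 to 34.6 CPM in DNMT3a libraries, at 25.1 to 34.1 CPM in DNMT3b libraries and at 29.4 to 31.2 CPM in control libraries, with log2 fold changes of 0.11 ± 0.11 and -0.01 ± 0.11 (edgeR, adjusted p = 0.617 and 0.968). DNMT3b 1 was its lowest library.

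Phf19 had the fewest reads of the 10 genes, 151 to 228 per library. It stood at 4.61 to 7.46 CPM in DNMT3a libraries, 4.70 to 7.64 CPM in DNMT3b libraries and 4.91 to 6.55 CPM in control libraries. It was also the gene with the widest spread in DNMT3a and DNMT3b libraries, with coefficients of variation of 27.2% and 24.2%. Its log2 fold changes were -0.02 ± 0.23 and 0.17 ± 0.23 (edgeR, adjusted p = 0.972 and 0.719), and the 95% interval with DNMT3b siRNA was wide, 0.792 to 1.60 in fold. Aebp2, the zinc-finger partner of JARID2 in the complex, stood at 59.6, 77.9 and 67.4 CPM in DNMT3a libraries, at 102, 71.1 and 68.8 CPM in DNMT3b libraries and at 65.2, 95.05 and 77.9 CPM in control libraries. The groups overlapped, and DNMT3b 1 and control 2 were the highest libraries. Its log2 fold changes were -0.22 ± 0.18 with DNMT3a siRNA and 0.02 ± 0.18 with DNMT3b siRNA (edgeR, adjusted p = 0.519 and 0.963). The spread of Aebp2 is such that the interval with DNMT3a siRNA, 0.651 to 1.14 in fold, includes no difference.

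**Figure D3:**
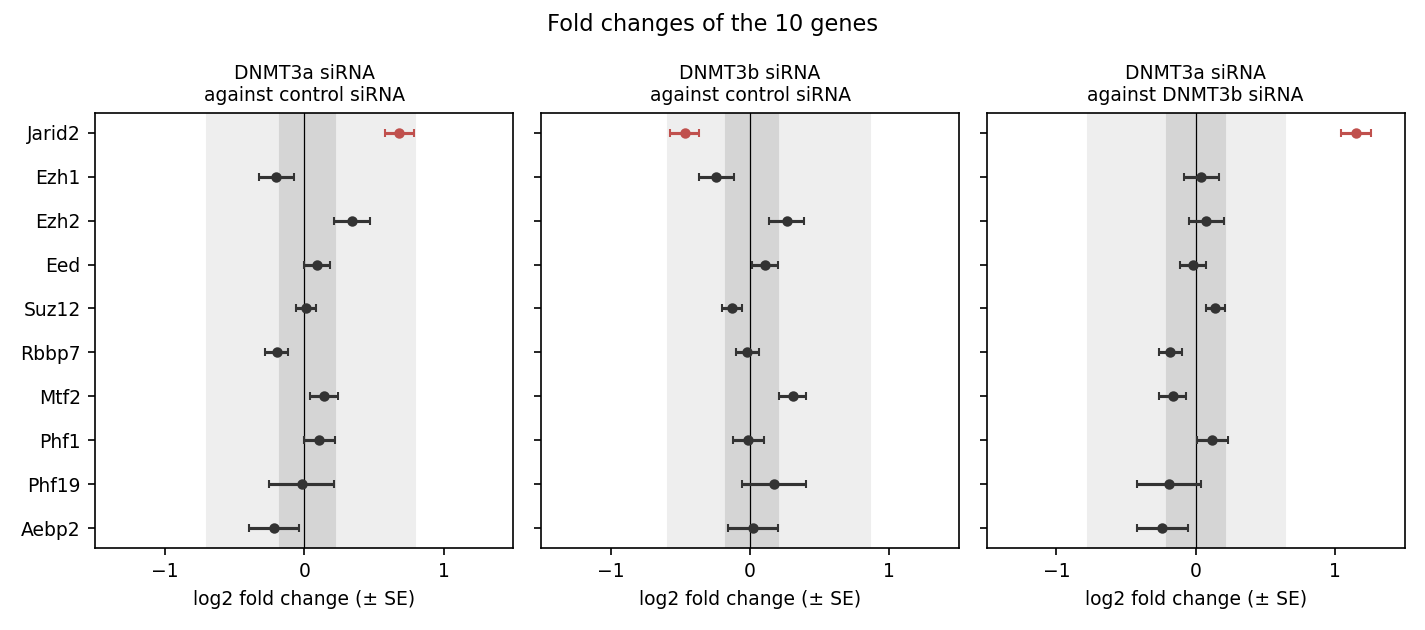
Log2 fold changes (horizontal axes) of the 10 genes ± SE in DNMT3a against control, DNMT3b against control and DNMT3a against DNMT3b libraries. The dark band holds the middle 50% of all 16561 genes and the light band the middle 90%; Jarid2 (red) stands at 0.68, -0.47 and 1.15, and the 9 other genes stay between -0.24 and 0.34.

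Levels of different genes were compared as CPM per kilobase of exon. In control libraries the order was Rbbp7 (mean 49.4 CPM per kilobase), Suz12 (14.5), Phf1 (8.71), Eed (8.30), Aebp2 (8.06), Ezh2 (5.33), Mtf2 (3.80), Jarid2 (3.60), Ezh1 (3.28) and Phf19 (1.15). The ranges of neighbours overlapped from Phf1 to Eed to Aebp2 and from Mtf2 to Jarid2 to Ezh1, so that those places in the order do not differ beyond their spread. In DNMT3a libraries Jarid2, at 5.76 CPM per kilobase, took rank 7, above Mtf2 at 4.19 without overlap and next to Ezh2 at 6.76 with overlap. In DNMT3b libraries Jarid2, at 2.59 CPM per kilobase, took rank 9, below Ezh1 at 2.77 without overlap. Of the summed per-kilobase level of the 5 accessory genes (Jarid2, Aebp2, Mtf2, Phf1 and Phf19), Jarid2 made up 19.4% to 22.7% in DNMT3a libraries, 9.98% to 10.5% in DNMT3b libraries and 13.2% to 15.1% in control libraries. Set against the scaffold gene Suz12, the level of Jarid2 was 39.7% in DNMT3a, 19.6% in DNMT3b and 24.8% in control libraries. These shares hold the values of Jarid2 and are given as a description.

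**Figure D4:**
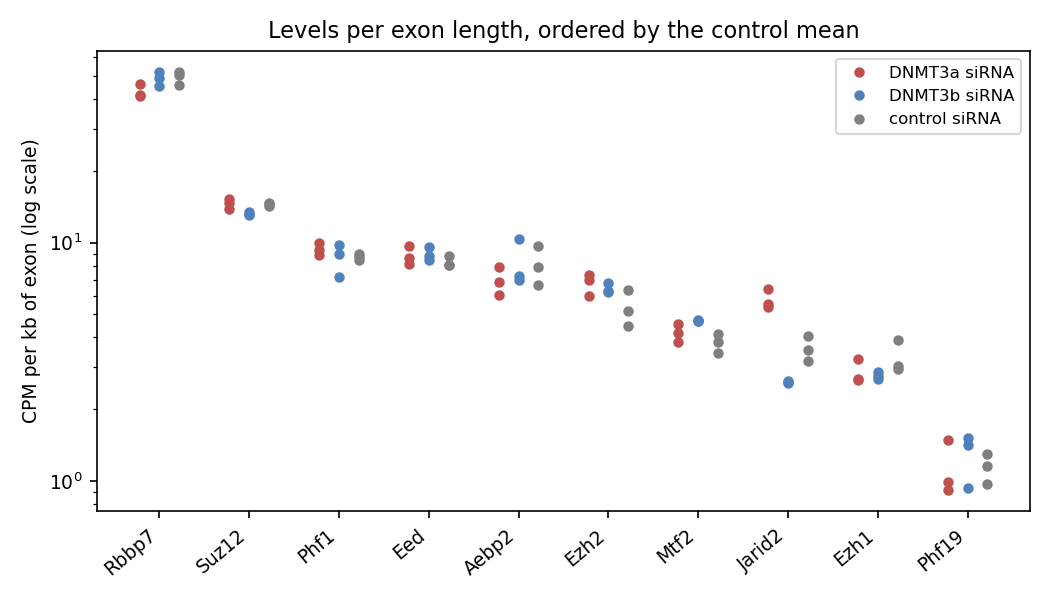
Level of each gene in CPM per kilobase of exon (vertical axis, log scale) in the 9 libraries, with genes ordered by the control mean and points coloured by group. Rbbp7 and Suz12 are the highest and Phf19 the lowest in every group, and the 3 groups of Jarid2 do not overlap.

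Across the 9 libraries, Pearson correlations of log2 CPM with Jarid2 were 0.67 for Suz12, 0.42 for Phf1, 0.12 for Ezh2, 0.08 for Ezh1, -0.14 for Eed, -0.21 for Phf19, -0.31 for Aebp2, -0.44 for Mtf2 and -0.68 for Rbbp7. The 9 points share 3 groups, so a gene that differs between groups can reach a high value from the groups alone. Among 10829 protein-coding genes whose log2 CPM averaged 2 or more, those most like Jarid2 were Dlc1 at 0.99 and Smug1, Ubl7, Gab1 and Mars at 0.98. Dlc1 encodes a GTPase-activating protein, Smug1 a DNA glycosylase that removes uracil, Gab1 an adaptor of receptor tyrosine kinases and Mars the methionyl-tRNA synthetase. The lowest were Snn at -0.99 and Map3k20, Rnf6, Msn and 9130401M01Rik at -0.97. Msn encodes moesin, which links actin to the membrane, and Map3k20 a stress-activated kinase.

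Genes that work beside PRC2 were counted from lists. For these and the lists below, edgeR called 4.87% of all genes higher and 5.22% lower with DNMT3a siRNA. The shares were 3.52% and 2.12% with DNMT3b siRNA, and 4.47% and 5.08% between DNMT3a and DNMT3b libraries. Of 4 further PRC2 subunits or inhibitors tested, Lcor, whose locus encodes a subunit of one accessory form among its products, rose with DNMT3a siRNA. The counts are per gene and do not tell its products apart. Lcor stood at 29.0, 21.7 and 33.2 CPM in DNMT3a libraries, against 17.8, 14.5 and 20.9 CPM in control libraries (log2 fold change 0.66 ± 0.17, edgeR adjusted p = 0.0305). The call was lost in 7 of 18 alternatives, among them leaving out control 1, control 2, DNMT3a 1, DNMT3a 3, DNMT3b 2 or DNMT3b 3, with an adjusted p of up to 0.105. Lcorl and Rbbp4 were not called in any comparison, with log2 fold changes between -0.13 and 0.25. Epop, which tempers PRC2 in mouse embryonic stem cells, stood at 3.86, 4.94 and 3.30 CPM in DNMT3a libraries, against 7.19, 6.18 and 6.80 CPM in DNMT3b libraries, and was lower in that comparison (log2 fold change -0.73 ± 0.20, edgeR adjusted p = 0.0447). That call was lost in 6 of 18 alternatives, among them leaving out DNMT3a 1, DNMT3a 3 or any DNMT3b library, with an adjusted p of up to 0.149. With DNMT3b siRNA 0 of the 4 were called (1 at an unadjusted p under 0.05, 0 by DESeq2 and 0 by limma-voom). Ezhip, an inhibitor of PRC2, had 0 to 6 reads per library and was not tested.

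Polycomb repressive complex 1 (PRC1) adds ubiquitin to histone H2A at many of the same sites. Of its 25 genes tested, 3 rose and 1 fell with DNMT3a siRNA, against 4.87% and 5.22% of all genes, with a median log2 fold change of 0.07 beside 0.02 over all genes. DESeq2 called 6 of the 25 and limma-voom 3. Pcgf3, which defines one variant form, stood at 67.5, 80.4 and 74.6 CPM in DNMT3a libraries, at 180, 168 and 161 CPM in DNMT3b libraries, and at 189, 169 and 190 CPM in control libraries. All DNMT3a libraries lay far below the other 6, and the fall of 1.30 ± 0.09 on the log2 scale against control (edgeR, adjusted p = 3.72e-05) held in all 18 alternatives. Ring1, one of the paired E3 ligase genes, stood at 29.8, 27.7 and 23.8 CPM in DNMT3a libraries, against 17.5, 20.5 and 17.2 CPM in control libraries (log2 fold change 0.56 ± 0.11, edgeR adjusted p = 0.0109, or 0.0541 without DNMT3a 1). Phc1 (0.29 ± 0.08, adjusted p = 0.0459) and Bcor (0.33 ± 0.09, adjusted p = 0.0490) passed edgeR's test narrowly, and lost the call in 12 and 13 of 18 alternatives, with adjusted p of up to 0.157 and 0.178. With the library number as a block, Pcgf5 and Scmh1 were also called higher with DNMT3a siRNA (edgeR, adjusted p = 0.0376 and 0.0288). With DNMT3b siRNA 0 of 25 were called by edgeR (6 at an unadjusted p under 0.05, 1 by DESeq2 and 0 by limma-voom), with a median of 0.00. The block called Yaf2 lower with DNMT3b siRNA (log2 fold change -0.32 ± 0.08, edgeR adjusted p = 0.0294). Between the knockdowns Ring1 (0.71 ± 0.11, edgeR adjusted p = 0.00445) and Phc1 (0.30 ± 0.08, adjusted p = 0.0451) were higher in DNMT3a libraries, and Pcgf3 was lower (-1.19 ± 0.09, edgeR adjusted p = 1.23e-04). The Phc1 call between the knockdowns was lost in 11 of 18 alternatives, with an adjusted p of up to 0.145.

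Lists of enzymes that act against or beside the mark hold 7 to 14 genes each, and with 10.1%, 5.64% and 9.55% of all genes called in the 3 comparisons, few calls or none in a list this short say nothing particular to it. The PR-DUB complex removes the ubiquitin that PRC1 adds, and of its 8 genes (Bap1, Asxl1, Asxl2, Asxl3, Foxk1, Foxk2, Mbd5 and Mbd6) edgeR called 0 in each comparison, with 3, 0 and 2 at an unadjusted p under 0.05, 1, 0 and 2 by DESeq2 and 0 by limma-voom. Of the 7 H3K27 demethylase and KDM5 genes (Kdm6a, Kdm6b, Uty, Kdm5a, Kdm5b, Kdm5c and Kdm5d), which include the closest relatives of Jarid2, edgeR called 0 in each, with 1, 2 and 1 at an unadjusted p under 0.05, 1, 0 and 0 by DESeq2 and 0 by limma-voom. Kdm5a came nearest, with log2 fold changes of -0.26 ± 0.08 and -0.24 ± 0.08 with DNMT3a and DNMT3b siRNA (edgeR, adjusted p = 0.0785 and 0.122). Of 10 genes of H3K9 and H3K36 methyltransferases (Ehmt1, Ehmt2, Suv39h1, Suv39h2, Setdb1, Setdb2, Setd2, Nsd1, Nsd2 and Nsd3), edgeR called 0 in each, with 1, 0 and 2 at an unadjusted p under 0.05 and 0 by DESeq2 and by limma-voom. Most of the 14 Trithorax and COMPASS genes encode parts of complexes that methylate H3K4 and oppose Polycomb. Of the 14, edgeR called 0 in either knockdown against control (2 and 2 at an unadjusted p under 0.05, 1 and 1 by DESeq2, 0 and 0 by limma-voom). With the library number as a block, 1 of the 14, Dpy30, was called higher with DNMT3a siRNA (log2 fold change 0.44 ± 0.12, edgeR adjusted p = 0.0284). Between the knockdowns 2 of the 14 were higher in DNMT3a libraries. Setd1b stood at 113, 82.9 and 104 CPM in DNMT3a libraries, against 60.3, 69.4 and 70.5 CPM in DNMT3b libraries (log2 fold change 0.59 ± 0.14, edgeR adjusted p = 0.0303). Cxxc1, which binds unmethylated CpG, stood at 65.4, 63.5 and 60.8 CPM in DNMT3a libraries, against 49.8, 50.7 and 49.2 CPM in DNMT3b libraries (log2 fold change 0.34 ± 0.07, edgeR adjusted p = 0.0131). Each lost its call when DNMT3a 1, DNMT3b 2 or DNMT3b 3 was left out, and Setd1b also without DNMT3a 3 or DNMT3b 1, with adjusted p of up to 0.119 and 0.0705.

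A list of 9 genes reported to be repressed by Jarid2 or Ezh2 in mouse heart held 8 that could be tested, and Bmp10, with 3 to 10 reads per library, could not. Nppa, which encodes atrial natriuretic peptide, rose in both knockdowns. It stood at 184, 230 and 156 CPM in DNMT3a libraries, at 184, 199 and 253 CPM in DNMT3b libraries, and at 34.5, 58.8 and 41.6 CPM in control libraries. The log2 fold changes were 2.08 ± 0.22 and 2.24 ± 0.22 with DNMT3a and DNMT3b siRNA (edgeR, adjusted p = 8.07e-04 and 8.70e-04), while Jarid2 stood above control in one of these groups and below it in the other. Nppa is made by cardiomyocytes, and the cardiomyocyte marker sum given above was also higher in both knockdowns. Its part in the rise was not tested. Cdkn2a, an inhibitor of cell division, stood at 5.42, 16.4 and 13.7 CPM in DNMT3a libraries, against 29.9, 52.2 and 35.5 CPM in control libraries, and fell by 1.73 ± 0.38 on the log2 scale (edgeR, adjusted p = 0.0290). That call was lost in 9 of 18 alternatives, among them leaving out any control library, DNMT3a 3, DNMT3b 2 or DNMT3b 3, with an adjusted p of up to 0.0896. The proliferation markers, for comparison, summed to 648 to 847 CPM in DNMT3a, 615 to 736 CPM in DNMT3b and 598 to 818 CPM in control libraries, with 0 of 8 called by edgeR, DESeq2 or limma-voom and 0 at an unadjusted p under 0.05.

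The other 6 heart genes did not pass edgeR's test in any comparison without a block. Other tools gave more calls. Of all 8, DESeq2 called 3 with DNMT3a siRNA, 2 with DNMT3b siRNA and 4 between the knockdowns, and limma-voom called 2, 1 and 1. At an unadjusted p under 0.05 edgeR gave 4, 3 and 5. Nothing is read from these counts. Notch1, a receptor reported as a target of Jarid2 in the mouse heart, stood at 43.4, 37.4 and 47.1 CPM in DNMT3a libraries, at 52.2, 57.5 and 54.8 CPM in DNMT3b libraries, and at 49.2, 50.2 and 65.6 CPM in control libraries. All DNMT3a libraries were below all others, with a log2 fold change of -0.37 ± 0.12 against control (edgeR, adjusted p = 0.0905). With the library number as a block, which the DNMT3a and control libraries share, Notch1 was called lower (edgeR, adjusted p = 0.0404). Ccnd1, the cyclin D1 gene, stood at 173, 84.6 and 122 CPM in DNMT3a libraries, at 76.3, 65.9 and 68.6 CPM in DNMT3b libraries and at 121, 83.0 and 125 CPM in control libraries. The DNMT3b libraries were the lowest 3, with a log2 fold change of -0.64 ± 0.25 (edgeR, adjusted p = 0.179), against 0.21 ± 0.25 with DNMT3a siRNA (adjusted p = 0.675). Isl1, a transcription factor of cardiac progenitors, had log2 fold changes of 0.99 ± 0.42 and -0.44 ± 0.44 (edgeR, adjusted p = 0.170 and 0.608). Pax6 and Hcn4 had log2 fold changes between -0.21 and 0.60 in the knockdowns against control, with standard errors of 0.26 to 0.48. With the block, Ccnd1 was called lower and Hcn4 higher with DNMT3b siRNA (edgeR, adjusted p = 0.0299 and 0.0236). Between the knockdowns the block called Ccnd1 and Isl1 higher in DNMT3a libraries (edgeR, adjusted p = 0.00865 and 0.0172). It called Notch1 and Hcn4 lower there (edgeR, adjusted p = 0.0359 and 0.0153). Whether the numbers pair the DNMT3b libraries is unclear.

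Of 32 developmental regulators bound by PRC2 in mouse embryonic stem cells, 15 passed the filter on low counts, and since a gene can pass through the group where it is high, their count is no measure of the list. EdgeR called 0 of the 15 with DNMT3a siRNA and 0 with DNMT3b siRNA (5 and 5 at an unadjusted p under 0.05, 3 and 3 by DESeq2, 0 and 0 by limma-voom). With the library number as a block, 3 were called higher with DNMT3a siRNA, namely Hand1, Irx3 and Irx5, at log2 fold changes of 0.77, 0.88 and 0.72 (edgeR, adjusted p = 0.0246, 0.0154 and 0.0408). The block also called 3 with DNMT3b siRNA, where it is unclear whether the numbers pair the samples. Irx3 and Irx5 were higher there too, at 1.02 and 0.93, and Six2 was lower, at -0.92 (edgeR, adjusted p = 0.0102, 0.0172 and 0.00262). Between the knockdowns 1 was higher, Six2, at 22.7, 10.9 and 16.3 CPM in DNMT3a libraries, against 7.65, 6.08 and 7.19 CPM in DNMT3b libraries (log2 fold change 1.25 ± 0.27, edgeR adjusted p = 0.0209). Control libraries held 16.2, 9.59 and 14.6 CPM of Six2. Control 2 lay below all DNMT3a libraries, the other control libraries lay among them, and all control libraries lay above the DNMT3b libraries. The call was lost in 6 of 18 alternatives, among them leaving out DNMT3a 1, DNMT3a 3 or any DNMT3b library, with an adjusted p of up to 0.0953.

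**Figure D5:**
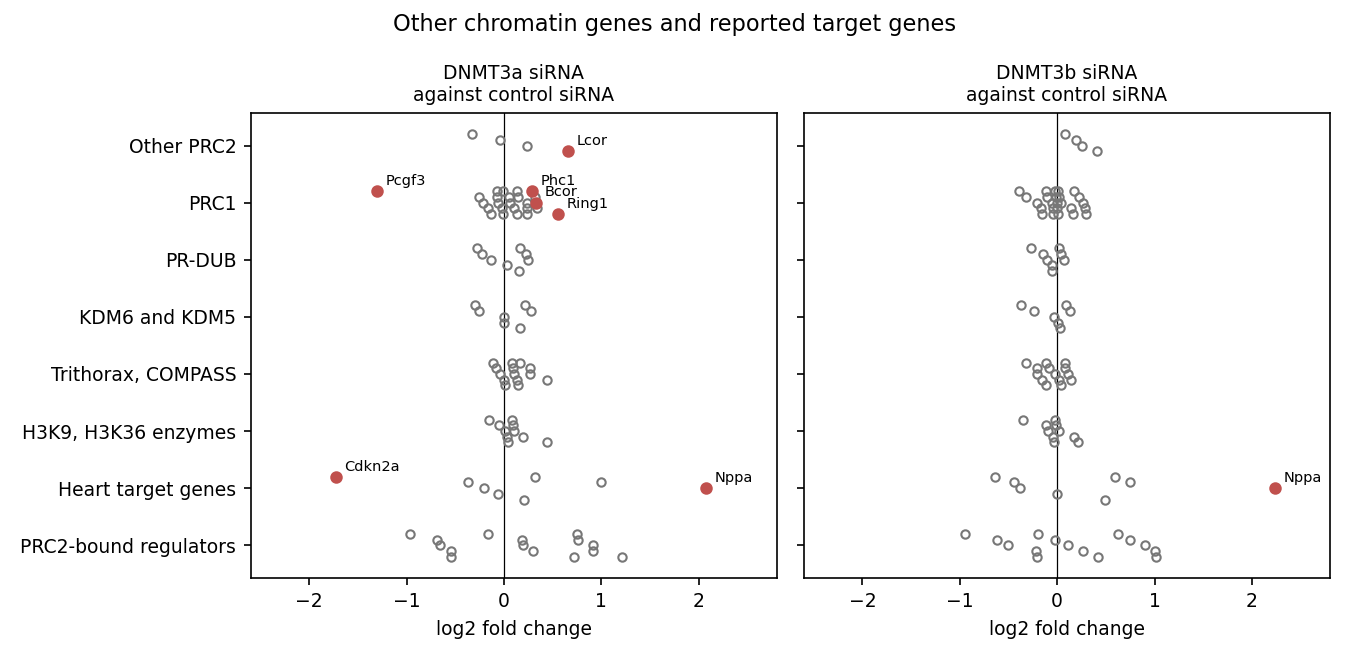
Log2 fold changes (horizontal axes) against control of the tested genes of each list, with DNMT3a siRNA on the left and DNMT3b siRNA on the right; filled red points passed the test at an adjusted p under 0.05 and open points did not. With DNMT3a siRNA Lcor, Ring1, Phc1, Bcor and Nppa stand higher and Pcgf3 and Cdkn2a lower, and with DNMT3b siRNA the filled point is Nppa.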

How the data were processed

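RNA-seq was measured in 9 libraries, 3 per siRNA group. Per the deposited files, the authors gave whole-number read counts for 43629 Ensembl genes, not normalised, with summary lines (49.2% to 56.2% of each table) that entered neither library sizes nor tests. The submitters' processing notes name FastQC, TopHat2, HTSeq and the mm10/GRCm38 build. Their versions, the annotation release and the strand setting were not given in the sources used. The library kit is not described as keeping strand, per the labels' protocols.

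Symbols, coordinates and exon lengths came from GENCODE mouse release 21, which names 42548 of the genes. The filterByExpr filter of edgeR, with a minimum count of 10 and a minimum total of 15, left 16561 genes, and libraries were scaled by TMM. All libraries entered 1 quasi-likelihood fit on group (edgeR 4.0.16, R 4.3.3; 6 residual degrees of freedom, robust fitting, biological coefficient of variation 0.154). Tests were two-sided, with Benjamini-Hochberg adjustment over all 16561 genes, and a change was called where the adjusted p lay under 0.05. Log2 CPM used a prior count of 2. The fit was tested on simulated data. DESeq2 1.42.0, limma-voom (limma 3.58.1), other scalings, other filters, fits of 2 groups, the library number as a block, and each library left out were alternatives. Fits without the 3 libraries numbered 2 were added after the data were seen.

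The members and the gene lists were chosen with earlier results of these data known. Named were the 10 genes, both siRNA targets, all members of lists with at most 10 tested genes, otherwise up to 4 changed members with the smallest adjusted p, and the 5 protein-coding genes most and least correlated with Jarid2. Muc16, an epicardial marker, was not analysed here. A few genes are counted but not reported here by name.

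The labels do not say what a library number marks. Deviations from group means correlated at 0.434, 0.513 and 0.459 between DNMT3a and control libraries of the same number, so the libraries of these groups may be paired. The main fit did not use the numbers, so its values for DNMT3a against control are unpaired. With the number as a block, 2370 genes were called in that comparison, against 1671 in the main fit. The block changed no call of the 10 genes there. No pair of replicates agreed within sampling noise.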

Additional observations from a re-analysis of the deposited data

How the results depend on the processing

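The alternatives refit the values that chose Jarid2, so what follows on Jarid2 is a description and no support for its pattern. Jarid2 kept its direction in all 18 alternatives of each comparison. Its log2 fold change moved by more than the spread between libraries, 0.13 on the log2 scale, in 1 of them, to 0.81 with DNMT3a siRNA without the 3 libraries numbered 2. Leaving out single libraries gave 0.60 to 0.78 with DNMT3a siRNA, -0.55 to -0.38 with DNMT3b siRNA and 1.07 to 1.20 between the knockdowns. The number of PRC2 genes called ran over these omissions from 1 to 2 with DNMT3a siRNA and from 0 to 1 with DNMT3b siRNA, and it was 0 with DNMT3b siRNA without the libraries numbered 2. Leaving out 1 library leaves fewer samples in the fit.

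The number of all genes called depended more on the libraries. With DNMT3a siRNA 1671 genes were called, 946 in a fit of only the 2 groups compared, and 868 (without DNMT3a 1) to 1839 with 1 library left out. With DNMT3b siRNA the count was 934, or 1700 by DESeq2, and 287 (without DNMT3b 3) to 1781 (without control 2). Between the knockdowns it was 1582, and 524 (without DNMT3b 2) to 1962 with 1 library left out. The cause of these shifts was not tested.

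With the replicate block, 2370, 1801 and 2513 genes were called in DNMT3a against control, DNMT3b against control and DNMT3a against DNMT3b. For DNMT3b libraries it is unclear whether the numbers pair the samples. Same-numbered deviations correlated at 0.212, 0.101 and 0.0334 with control and at 0.161, 0.0776 and 0.0414 with DNMT3a libraries. The block changed no call of the 10 PRC2 genes, nor any call of the listed genes with DNMT3a siRNA against control beyond those named above. Phf19, at 151 to 228 reads per library, is the member that depth limits most.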
